A study of Mus musculus with 58 samples.

Results

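The Ms4a membrane protein family was followed in mouse microglia as 7 genes, Ms4a4a, Ms4a4b, Ms4a4c, Ms4a6b, Ms4a6c, Ms4a6d and Ms4a7, chosen by name and matched by symbol to the Ensembl identifiers of the count tables. They were 7 of 19 Ms4a symbols and of 47643 genes counted. The choice was made with earlier results of these data known, so the shares of members called below are a description. RNA was measured by QuantSeq, which sequences the 3′ ends of polyadenylated transcripts, in 34 microglia libraries of 4 experiments. A further 24 samples of cortex in the series were not analysed here.

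In the first experiment, wild-type primary microglia received 2 µg/ml of full-length tau fibrils for 24 h (n = 4) or vehicle (n = 4). In the second, microglia were isolated with CD11b beads from male PS19 mice, which carry a P301S human tau transgene (n = 4, aged 10.98 months), and from non-transgenic NTG mice (n = 4, aged 10.98 to 11.18 months). The third compared IkbkbCA primary microglia, in which Cx3cr1-CreERT2 switches on a constitutively active IKKβ from the Rosa26 locus, with IkbkbWT cultures (n = 5 each). The fourth compared Ikbkb-/- primary microglia, in which the same Cre deletes floxed Ikbkb, with Ikbkb+/+ cultures (n = 4 each). IKKβ is the kinase that releases NF-κB. Per the methods, littermate controls of both genetic experiments lacked Cre, and the cultures of those experiments, controls included, were given 4-hydroxytamoxifen. Primary cultures came from newborn hippocampus and cortex by shaking off a mixed glial layer, and the animals behind a culture are not identified in the labels, so p-values measure the spread between these cultures. Since Cre was absent from the controls, the effect of Cre itself and that of the Ikbkb allele cannot be told apart.

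Ms4a genes encode small proteins that span the membrane in a set of helices, and they sit next to each other as a gene cluster. In myeloid cells they associate with surface receptors and modulate their signalling, and MS4A4A has been linked to the release of soluble TREM2. Ms4a7 is widely used as a marker of macrophages at the brain's borders and of macrophages that enter the brain, Ms4a4a marks alternatively activated macrophages, and Ms4a4b is best known from T cells.

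On GRCm38 with GENCODE M21, the 7 genes occupied 283.8 kb of chromosome 19, within the 678.6 kb that hold all 19 Ms4a genes of that chromosome. In order they were Ms4a7 (chr19:11321039-11336146, minus strand), Ms4a4a (chr19:11375523-11392790, plus), Ms4a4c (chr19:11404770-11427246, plus), Ms4a4b (chr19:11443553-11467055, plus), Ms4a6c (chr19:11469366-11482192, plus), Ms4a6b (chr19:11516512-11531256, plus) and Ms4a6d (chr19:11586604-11604849, minus). Ms4a4b and Ms4a6c lay closest together, 2.3 kb apart, and Ms4a6b and Ms4a6d farthest, 55.3 kb apart.

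Promoter windows of 250 bases before to 50 bases after a RefSeq start (GRCm38.p6) matched 6 of the 7 members by symbol, with a second start for Ms4a7. The first 4 windows below are shown because these genes were called higher in 3 of the 4 experiments. Capitals mark the core of the interferon-stimulated response element, GAAANNGAA on either strand. The Ms4a6c and Ms4a6b windows hold matches of identical letters, and the Ms4a7 window holds another match on the opposite strand.

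Ms4a6c promoter, chr19:11469118-11469417, plus strand: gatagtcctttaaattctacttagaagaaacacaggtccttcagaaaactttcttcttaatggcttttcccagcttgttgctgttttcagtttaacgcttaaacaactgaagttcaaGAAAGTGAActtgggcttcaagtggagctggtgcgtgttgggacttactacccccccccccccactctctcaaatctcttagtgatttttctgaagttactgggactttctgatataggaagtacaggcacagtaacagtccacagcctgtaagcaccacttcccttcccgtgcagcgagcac

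Ms4a6b promoter, chr19:11518309-11518608, plus strand: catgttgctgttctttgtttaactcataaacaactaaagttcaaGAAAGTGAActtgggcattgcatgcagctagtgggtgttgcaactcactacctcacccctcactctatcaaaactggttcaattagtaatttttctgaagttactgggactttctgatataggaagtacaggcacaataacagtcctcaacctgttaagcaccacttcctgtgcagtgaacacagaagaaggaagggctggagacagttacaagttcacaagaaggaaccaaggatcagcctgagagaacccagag

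Ms4a7 promoter, chr19:11336097-11336396, minus strand: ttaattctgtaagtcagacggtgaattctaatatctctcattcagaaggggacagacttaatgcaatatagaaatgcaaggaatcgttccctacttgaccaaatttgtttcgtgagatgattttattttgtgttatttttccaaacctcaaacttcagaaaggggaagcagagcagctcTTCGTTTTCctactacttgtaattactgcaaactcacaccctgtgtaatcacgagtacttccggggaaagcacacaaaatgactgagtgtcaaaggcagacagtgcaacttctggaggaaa

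Ms4a4c promoter, chr19:11407411-11407710, plus strand: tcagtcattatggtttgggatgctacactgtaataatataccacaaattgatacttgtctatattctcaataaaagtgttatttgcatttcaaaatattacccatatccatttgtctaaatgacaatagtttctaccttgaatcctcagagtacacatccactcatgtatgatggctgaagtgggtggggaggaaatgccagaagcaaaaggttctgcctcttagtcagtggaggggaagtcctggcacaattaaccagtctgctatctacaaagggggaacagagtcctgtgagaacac

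Ms4a4b promoter, chr19:11443308-11443607, plus strand: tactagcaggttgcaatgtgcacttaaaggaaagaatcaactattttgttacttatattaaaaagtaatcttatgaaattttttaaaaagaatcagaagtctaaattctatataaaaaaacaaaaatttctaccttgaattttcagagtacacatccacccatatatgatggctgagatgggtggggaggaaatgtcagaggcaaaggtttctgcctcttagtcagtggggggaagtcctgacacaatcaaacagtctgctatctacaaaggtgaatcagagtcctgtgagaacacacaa

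The Ms4a4c and Ms4a4b windows are printed because these neighbours resemble each other in sequence while their counts differed. Their longest identical run was 20 bases, and that of the Ms4a6c and Ms4a6b windows was 48 bases. Among the other 13 pairs of members with a window it was 7 to 9 bases. The response-element core was present in the windows of Ms4a6c (133 bases before the start), Ms4a6b (206 bases) and both windows of Ms4a7 (71 and 148 bases), and in 8.56% of all 32851 promoter windows. It was not found in the windows of Ms4a4a, Ms4a4b or Ms4a4c. A gamma-activated site, TTCNNNGAA, and the core bound by the myeloid factor PU.1, GAGGAAG, were in none of the 7 windows and in 8.3% and 13.63% of all windows. The κB consensus, the DNA element of NF-κB, was present once, as GGGATTTTCC at 247 bases before the Ms4a4a start, and in 8.46% of all windows. The motifs were searched on both strands and no matches overlapped each other. The RefSeq starts used for Ms4a4c and Ms4a6b lie inside the GENCODE gene bounds given above.

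Near-identical stretches can split or remove 3′ reads between paralogs. Among 50-base windows in the last 500 bases of the members' annotated transcripts, 11.12% of those of Ms4a4c, 7.76% of Ms4a6c, 4.31% of Ms4a6b and 4.22% of Ms4a4b also occurred in a transcript of another gene, mostly between Ms4a4b and Ms4a4c and among Ms4a6b, Ms4a6c and Ms4a6d. None of the windows of Ms4a4a, Ms4a6d or Ms4a7 did. BE692007, annotated on the strand opposite Ms4a6c, had at most 0.50 CPM in any library, where CPM are counts scaled to the size of the library. Whether counting used strand is not given in the sources used here.

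Libraries held 1672052 to 8349128 counts. Levels are given as CPM with edgeR's TMM factors, computed over all 34 libraries together. Fold changes come from edgeR's quasi-likelihood test of the groups of an experiment, and genes are called at a Benjamini-Hochberg false discovery rate (FDR) under 0.05. In the targeted experiments, Ikbkb was 24.6, 24.7, 18.7 and 22.4 CPM in Ikbkb-/- against 45.6 to 55.2 CPM in Ikbkb+/+ (log2 fold change -1.20 ± 0.12 SE, FDR 6.34e-07), and 45.1 to 60.4 CPM in IkbkbCA against 40.5 to 58.8 CPM in IkbkbWT (0.17 ± 0.12, FDR 0.405). A 3′ tag need not register the inserted IKKβ, nor a deletion elsewhere in the gene. Microglial markers (7 genes, among them Tmem119, P2ry12 and Csf1r) summed to 2352 to 8110 CPM in cultures and 15990 to 27810 CPM in adult microglia. Markers of T and NK cells summed to at most 4.348 CPM in any library. Those of granulocytes summed to 425.1 to 2567 CPM in adult microglia and at most 405.5 CPM in a culture, and those of B cells to 287.6 to 474.3 CPM and at most 52.97 CPM. PS19 replicate 1 and IkbkbCA replicate 3 stood apart from their groups, as described where they matter.

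Every member that could be tested was higher with tau fibrils. Of the 7 members 5 passed the filter on low counts, and all 5 were called higher, where 29.9% of 10408 tested genes were called and 14.5% were called higher. Ms4a4c, with 0 to 3 counts per vehicle library, passed that filter only through the tau fibril libraries. It would not have been tested without being higher there, so its call adds little to the count. Their log2 fold changes were 2.44 to 5.15 (median 3.36), and the median of all genes tested was -0.01. All 5 separated the groups completely, as did 12.6% of tested genes with higher levels in tau fibrils.

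Ms4a7 was 918, 938, 971 and 788 CPM with tau fibrils and 142, 167, 170.3 and 199.5 CPM with vehicle. The lowest treated culture was above the highest control, and the difference was 2.45 ± 0.14 (log2, SE; FDR 3.43e-14), or 5.48-fold. Ms4a6c rose from 76.1, 111, 96.3 and 79.7 CPM to 961, 988, 876 and 839 CPM (3.36 ± 0.14, FDR 1.72e-16). Ms4a6b, the member that follows Ms4a6c at a distance of 34.3 kb, rose from 14.7, 26.8, 20.5 and 14.2 CPM to 248, 216, 237 and 214 CPM (3.56 ± 0.17, FDR 1.7e-15). The fitted changes of these paralogs correspond to 10.3-fold and 11.8-fold, and no treated culture overlapped a control. Ms4a6d, a family member described in macrophages, rose from 142, 147, 155 and 171 CPM to 911, 920.0, 790.4 and 611 CPM (2.44 ± 0.14, FDR 1.29e-13).

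Ms4a4c was at the edge of detection in vehicle, with counts of 2, 2, 3 and 0, and had 42, 50, 73 and 49 counts with tau fibrils. The summed counts gave a ratio of 37.7 (95% exact interval 18 to 94.9, counting error only), and the fitted log2 fold change was 5.15 ± 0.42 (FDR 1.7e-10), a value that depends on the fit's prior count. It was the member with the highest fitted change in this comparison. Ms4a4a, with counts of 0, 2, 3 and 0 after tau fibrils and 0 in each vehicle library, and Ms4a4b, with 0, 3, 3 and 8 against 1, 3, 2 and 0, were too low to test. For Ms4a4a both groups were at or under 3 counts per library, so no fold is given.

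**Figure D1:**
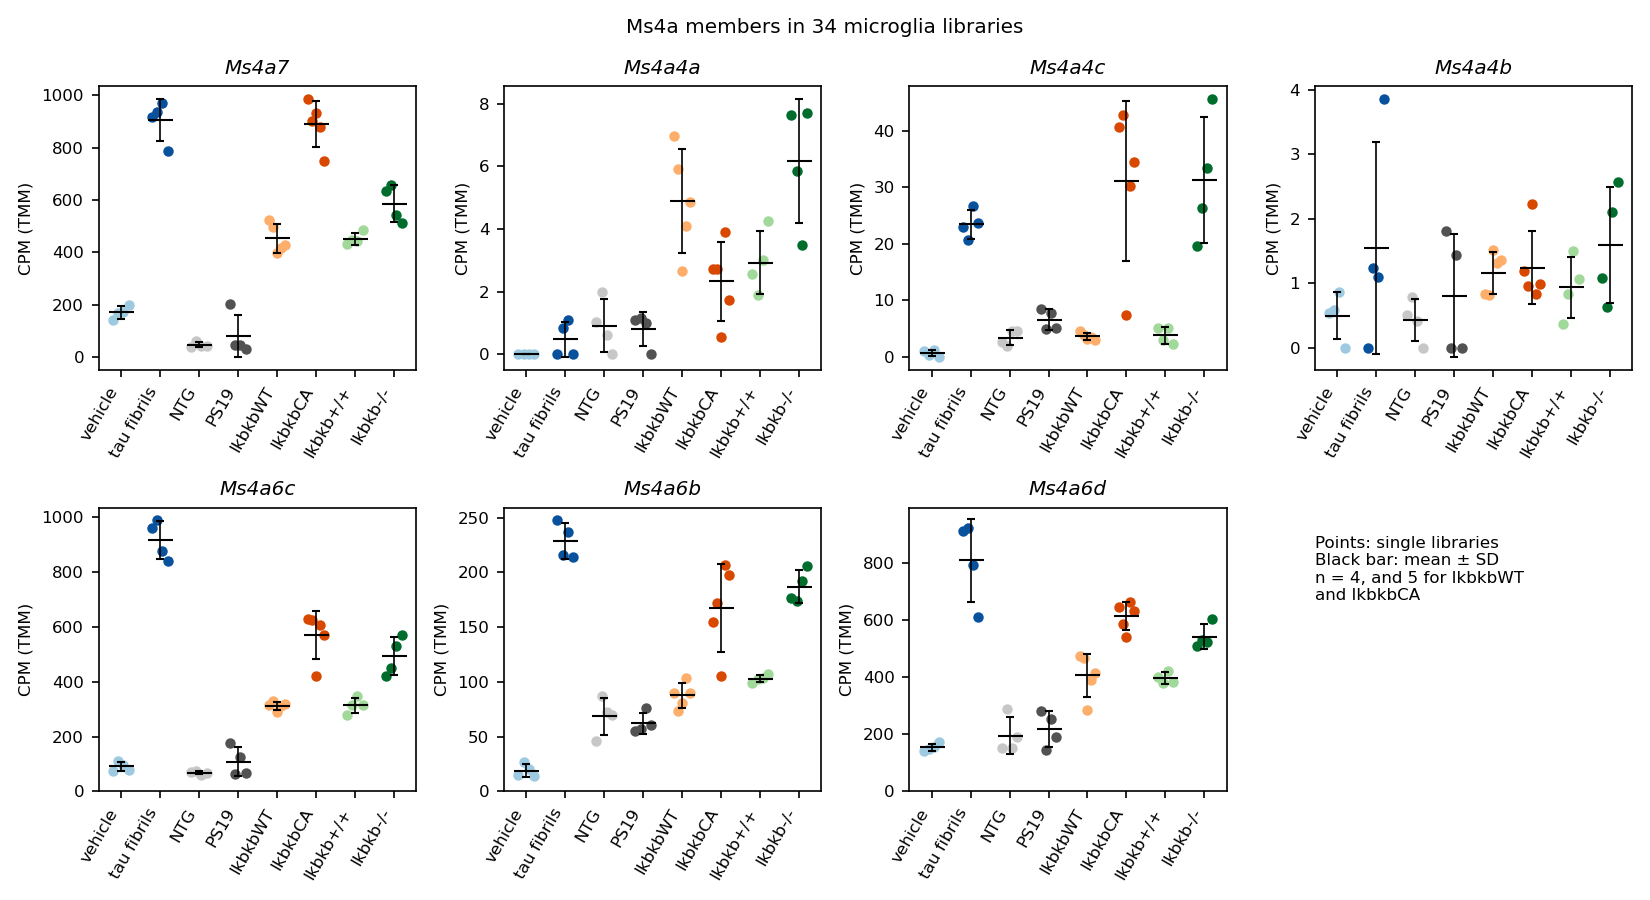
Level of each member (CPM, TMM-normalized, linear axis) in single libraries of the 8 groups, with the group mean ± SD as black bars. The 4 tau fibril libraries sit at 788 to 971 CPM for Ms4a7, above vehicle at 142 to 199.5 CPM, and 1 PS19 library sits at 201 CPM above the other 3 at 29.3 to 46.1 CPM.

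Other cell-state lists moved in the same cultures. Of 15 type I interferon response genes 14 were tested and all 14 were called higher, from Irf9 (log2 1.71) to Irf7 (6.32), and their summed level was 2348 to 2589 CPM against 122.3 to 208.7 CPM. Of 12 NF-κB response genes all 12 were called higher, from Nfkb1 (1.03) to Ccl5 (6.29). Of all genes tested, 14.5% were called higher. Several listed genes, among them Mx1, Zbp1, Usp18 and Irf7 (0 to 22 counts per vehicle library), passed the filter only through the tau fibril libraries. They would not have been tested without being higher there, so their calls add little to these counts. Among 7 receptors and adaptors linked to Ms4a proteins, 4 of 6 tested were called higher. The highest was Fcer1g (2.19, FDR 1.36e-13), the signalling chain of Fc receptors, and the lowest was Trem2 (-0.10, FDR 0.613), the lipid-sensing receptor of microglia. The microglial marker sum was also higher with tau fibrils, 4429 to 5308 CPM against 2352 to 3112 CPM, and so was that of border-associated macrophages (8 genes), 291.7 to 316.9 CPM against 163.6 to 195.2 CPM. Of the latter 4 were tested and 3 called higher, Siglec1 (3.30), Stab1 (0.86) and Pf4 (0.56), while Mrc1 was not called (0.32, FDR 0.424). Astrocyte and neuron markers went the other way, with 3 of 5 and 3 of 4 called lower. The part of these shifts in the members' rise was not tested. In bulk libraries, fewer cells of a type and less RNA per cell cannot be told apart.

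In adult microglia no member was called between PS19 and NTG mice. Of the 5 members tested 0 were called by edgeR, DESeq2 or limma-voom and 0 had an unadjusted p under 0.05, in a comparison where 0.0707% of 11323 tested genes were called. Their log2 fold changes were -0.21 to 0.85 (median 0.60), beside a median of 0.00421 over all genes tested. Groups did not overlap for 1 member, with 4.54% of tested genes higher in every PS19 library.

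That member was Ms4a4c, at 8.51, 4.90, 7.75 and 5.07 CPM in PS19 (47, 17, 54 and 31 counts) and 2.59, 1.99, 4.63 and 4.57 CPM in NTG (5, 5, 22 and 8 counts). The highest NTG library and the lowest PS19 library lay close together, and the difference of 0.85 ± 0.42 (95% interval -0.05 to 1.75, FDR 0.607) was not called. Ms4a6c was 176, 64.8, 125 and 68.1 CPM in PS19 and 70.4, 75.6, 61.2 and 66.2 CPM in NTG (0.60 ± 0.29, interval -0.03 to 1.23, FDR 0.607). PS19 replicates 1 and 3 were above all NTG libraries and the other PS19 libraries were among them. Ms4a6d was 282, 143, 255 and 189 CPM against 151, 287, 152 and 191 CPM (0.08 ± 0.26, interval -0.48 to 0.65), and Ms4a6b had 62.1 ± 9.52 CPM against 68.8 ± 16.9 CPM (SD, n = 4 each; -0.21 ± 0.21, interval -0.68 to 0.25).

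Ms4a7 in PS19 rested on a single mouse. PS19 replicate 1 had 201 CPM and the others 46.1, 45.1 and 29.3 CPM, while NTG had 39.4, 61.3, 42.7 and 43.4 CPM, and the fitted change of 0.71 ± 0.49 (interval -0.36 to 1.78, FDR 0.714) became -0.29 ± 0.24 (FDR 0.78) without that library. The same library had the highest sum of border-associated macrophage markers, 1515 CPM against 611.5 to 798.3 CPM in the other adult libraries, with Mrc1 at 538.7 CPM against 125.6 to 249.6 CPM, Stab1 at 671.8 CPM against 217.2 to 375.3 CPM and Pf4 at 169.3 CPM against 63.92 to 109.1 CPM. Cd163 of the same list was lowest there, at 11.05 CPM. This library also had the lowest microglial marker sum, 15990 CPM, and the lowest granulocyte marker sum, 425.1 CPM against 945.7 to 2567 CPM. The part of these cells in its Ms4a7 level was not tested. Ms4a4a (0 to 7 counts per library) and Ms4a4b (0 to 10 counts) were below the filter.

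In the same libraries edgeR called 0 of 13 interferon genes tested (4 at an unadjusted p under 0.05), with a median log2 fold change of 0.57 and Cxcl10 highest (1.38, FDR 0.265). It called 0 of 12 NF-κB response genes (5 at an unadjusted p under 0.05), with a median of 0.645, from Nfkb1 (-0.13, FDR 0.921) to Ccl5 (1.91, FDR 0.0875). Of the receptors and adaptors 1 of 7 was called higher, Clec7a (1.97, FDR 0.0195), the β-glucan receptor dectin-1, and the lowest was Card9 (-0.60, FDR 0.742).

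**Figure D2:**
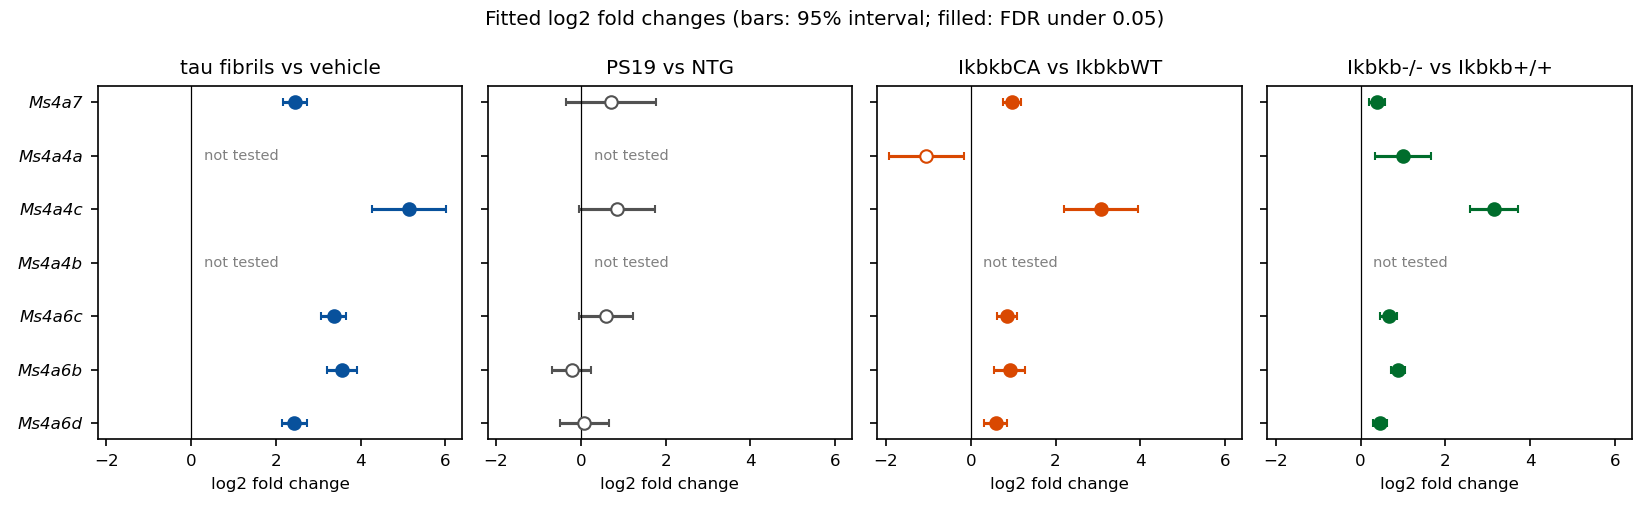
Fitted log2 fold change of each member in the 4 comparisons, with its 95% interval, filled where the FDR was under 0.05. All tested members lie right of 0 for tau fibrils (2.44 to 5.15) and Ikbkb-/- (0.39 to 3.14), whereas Ms4a4a lies left of 0 for IkbkbCA (-1.05, not called).

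Ms4a7, Ms4a4c and the 3 Ms4a6 genes were higher in IkbkbCA than in IkbkbWT. Of 6 members tested 5 were called, all higher, where 14.5% of 11697 tested genes were called and 7.31% were called higher. The log2 fold changes of the 6 were -1.05 to 3.08 (median 0.89), and the median of all genes tested was -0.05. The same 5 did not overlap between groups, against 6.51% of tested genes higher in every IkbkbCA library.

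Ms4a7 was 986, 903, 934, 880.1 and 751 CPM in IkbkbCA and 525, 497, 399, 417 and 427 CPM in IkbkbWT, a difference of 0.97 ± 0.10 (log2, SE; FDR 5.04e-05). Every IkbkbCA culture was above every control. Ms4a4c was 40.7, 42.8, 7.41, 30.2 and 34.4 CPM against 4.65, 3.88, 3.21, 3.61 and 2.95 CPM (3.08 ± 0.40, FDR 3.13e-04). Replicate 3 was far below the other IkbkbCA cultures, with 40 counts against 138 to 238, and remained above the controls, which had 17 to 28 counts. Without it the change was 3.35.

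The 3 Ms4a6 genes, which follow each other in order among the members, were also called. Ms4a6c was 629, 623, 421, 608 and 569 CPM against 316, 330.3, 291, 310.1 and 317 CPM (0.86 ± 0.11, FDR 2.63e-04). Ms4a6b was 155, 172, 106, 207 and 198 CPM against 90.0, 73.7, 80.9, 104 and 90.2 CPM (0.92 ± 0.17, FDR 0.00308). IkbkbCA replicate 3 was lowest of its group for both, and next to the highest control for Ms4a6b. Ms4a6d was 613 ± 49.3 CPM against 406 ± 75.4 CPM (SD, n = 5 each; 0.59 ± 0.12, FDR 0.00727), again with replicate 3 lowest. IkbkbWT replicate 3 was the lowest control for Ms4a6d at 286 CPM, and without it the Ms4a6d change was 0.49.

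Some of these cultures also differed in markers of other cells. Oligodendrocyte markers summed to 4673 CPM in IkbkbWT replicate 3 and 1695 CPM in IkbkbCA replicate 3, against 292.4 to 661.9 CPM in the other controls and 354.7 to 647.9 CPM in the other IkbkbCA cultures. Astrocyte markers were also highest in IkbkbWT replicate 3 (131.2 CPM, against 12.79 to 43.72 CPM in the other 9 cultures). Without both of those libraries the same 5 members were called, with Ms4a4c at 3.32, Ms4a6d at 0.55 and Ms4a7 at 0.93. Neuron markers summed to 56.11 to 83.52 CPM in 4 cultures, 2 of each genotype, and to at most 20.22 CPM in the other 6. Within the 4, the 5 members were called with log2 fold changes of 0.71 (Ms4a6d) to 3.33 (Ms4a4c). Within the 6, Ms4a6d was 0.54 ± 0.19 and no longer called (FDR 0.183), and the other members called stayed past the threshold, from 0.82 (Ms4a6b) to 2.94 (Ms4a4c). A term for this split in the fit of all 10 cultures kept the 5 calls (FDR 0.00693 for Ms4a6d). These divisions were chosen after the data were seen.

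Ms4a4a had 16, 14, 3, 28 and 7 counts in IkbkbCA and 42, 29, 14, 25 and 43 in IkbkbWT, or 2.73, 2.71, 0.556, 3.92 and 1.75 CPM against 6.98, 5.92, 2.65, 4.10 and 4.87 CPM. Its fitted change of -1.05 ± 0.41 (interval -1.93 to -0.16, unadjusted p = 0.0246 by edgeR) was not called after correction (FDR 0.115). It was -1.36 (FDR 0.262) within the 6 cultures low in neuron markers and -0.54 (FDR 0.389) within the 4 that were high. Ms4a4b had 4 to 12 counts per library in both groups and was not tested.

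Beside these values, IkbkbCA replicate 3 had a summed interferon response of 960.0 CPM, where the other IkbkbCA cultures had 2264 to 2447 CPM and IkbkbWT 234.2 to 492.0 CPM. Its summed NF-κB response was the highest of its group, 2131 CPM against 1387 to 1686 CPM in the other IkbkbCA cultures and 540.8 to 644.1 CPM in IkbkbWT. All 15 interferon genes were called higher, from Irf9 (0.94) to Irf7 (4.20), and 11 of 12 NF-κB response genes were, from 0.58 for Nfkb1 to 4.42 for Ccl5. Of all genes tested, 7.31% were called higher. Mx1 and Cxcl10 (1 to 25 counts per IkbkbWT library) passed the filter only through the IkbkbCA libraries. Border-associated macrophage markers moved against Ms4a7, with 5 of 7 tested called lower and their sum at 1008 to 1575 CPM against 2603 to 3850 CPM. Lyve1 (-4.56), Cbr2 (-2.96), F13a1 (-2.66), Mrc1 (-2.07) and Stab1 (-1.92) fell, and Siglec1 (1.96), an interferon-inducible lectin, rose. Of 7 microglial markers Tmem119 rose (1.60) and Fcrls (-1.91) and Cx3cr1 (-0.56), the locus that carries the Cre, fell. Granulocyte markers summed to 17.09 to 85.78 CPM, highest in replicate 3, against 6.615 to 12.24 CPM in IkbkbWT, with S100a8 called higher (2.52, FDR 0.00383). Ighm, the B cell marker tested, was lower (-2.05). Their part in the members' levels was not tested. Of the receptors and adaptors 0 of 7 were called by edgeR (1 at an unadjusted p under 0.05), between Card9 (-0.66, FDR 0.182) and Plcg2 (0.40, FDR 0.0945).

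Members were also higher in Ikbkb-/- than in Ikbkb+/+, with the Ms4a4a call the least stable. Of 6 members tested 6 were called higher, where 14.6% of 11242 tested genes were called and 7.64% were called higher. Their log2 fold changes were 0.39 to 3.14 (median 0.77), beside a median of 0.000169 over all genes tested. Groups did not overlap for 5 of them, against 8.66% of tested genes higher in every Ikbkb-/- library.

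Ms4a4c was 19.6, 26.4, 33.4 and 45.6 CPM in Ikbkb-/- (36, 126, 143 and 249 counts) and 5.11, 2.93, 5.17 and 2.26 CPM in Ikbkb+/+ (14, 14, 31 and 17 counts), a difference of 3.14 ± 0.27 (log2, SE; FDR 1.22e-07). The lowest deleted culture was above the highest control. Ms4a6b was 177, 174, 192 and 206 CPM against 99, 102, 103 and 108 CPM (0.87 ± 0.08, FDR 2.94e-07). Ms4a6c was 421, 448, 529.9 and 571 CPM against 280.2, 315, 347 and 314 CPM (0.66 ± 0.09, FDR 6.98e-05). Controls of both Ms4a6 genes lay close together and each deleted culture was above them. Ms4a6d was 541 ± 42.5 CPM against 396.5 ± 19.6 CPM (SD, n = 4 each; 0.46 ± 0.08, FDR 4.06e-04). Ms4a7 was 634, 657, 541 and 510.5 CPM against 431, 447, 444 and 484 CPM (0.39 ± 0.09, FDR 0.00637), the least change among the members called here. Ms4a7 was higher in replicates 1 and 2 of Ikbkb-/- than in 3 and 4, while Ms4a4c was higher in 3 and 4.

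Ms4a4a was 7.64, 5.86, 3.50 and 7.70 CPM (14, 28, 15 and 42 counts) against 2.56, 1.88, 3.0 and 4.25 CPM (7, 9, 18 and 32 counts). Its change was 0.99 ± 0.31 (FDR 0.0388), and 3 of 4 deleted cultures were above all controls. The call held in 2 of 8 fits that left out a library and was lost in the others, with an FDR of up to 0.168 (without Ikbkb-/- replicate 4). Ms4a4b had 2, 3, 9 and 14 counts against 1, 4, 9 and 8 and was not tested.

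In these cultures 14 of 15 interferon genes were called higher, with Irf7 highest (5.07) and Cxcl10 lowest (0.33, FDR 0.678), and their sum was 2773 to 3261 CPM against 303.9 to 324.0 CPM. Of all genes tested, 7.64% were called higher. Mx1 (4 to 13 counts per Ikbkb+/+ library) passed the filter only through the Ikbkb-/- libraries. Of the NF-κB response genes 6 of 12 were called lower and 1 higher. The list summed to 1928, 1109, 964.6 and 601.9 CPM in Ikbkb+/+ and 482.7 to 541.7 CPM in Ikbkb-/-, so the controls differed widely among themselves. Cxcl2, a chemokine, was lowest (-2.53, FDR 1.71e-04) and Ccl5 was highest (3.55, FDR 2.03e-08). Border-associated macrophage markers were again lower in 6 of 7 tested, with a sum of 978.8 to 1502 CPM against 3052 to 3214 CPM, and Siglec1 was higher (2.01). Of 7 microglial markers 4 were called lower, Siglech (-3.79), P2ry12 (-1.21), Cx3cr1 (-1.16) and Csf1r (-0.30). Their sum was 4875 to 5960 CPM against 6087 to 8110 CPM. Of 5 oligodendrocyte markers 4 were called higher, from Mbp (0.57) to Mag (0.93), with a sum of 474.8 to 554.4 CPM against 259.2 to 365.6 CPM. Both granulocyte markers tested were lower, S100a8 (-3.60) and S100a9 (-3.66), and their list summed to 405.5, 94.11, 39.37 and 7.7 CPM in Ikbkb+/+ and 8.17 to 12.56 CPM in Ikbkb-/-. Ighm was lower here too (-1.48). Of the receptors and adaptors 2 of 7 were called higher, with Plcg2 highest (0.45, FDR 0.0163) and Card9 lowest (-0.44, FDR 0.481). The part of these shifts in the members' levels was not tested.

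Because members were higher in both Ikbkb genotypes than in their controls, the difference between the effects was tested in 1 fit of the 18 libraries, in which 3.12% of 12352 tested genes were called. Of 6 members tested 2 were called, Ms4a7 and Ms4a4a. Ms4a7 rose more in IkbkbCA (0.97) than in Ikbkb-/- (0.39), a difference of 0.59 ± 0.14 (interval 0.30 to 0.89, FDR 0.0245). Ms4a4a went in opposite directions, -1.05 and 0.99, a difference of -2.07 ± 0.56 (interval -3.24 to -0.90, FDR 0.0494), at 3 to 43 counts per library.

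The other tested members were not separated by this test. For Ms4a4c the difference was -0.01 ± 0.57 (interval -1.21 to 1.18), a wide range at these counts. For Ms4a6b it was 0.06 (interval -0.35 to 0.48), for Ms4a6c 0.21 (-0.11 to 0.53) and for Ms4a6d 0.14 (-0.19 to 0.47), each with an FDR of at least 0.559. Ms4a4b was not tested. Both calls were sensitive to single libraries. Leaving out each in turn, Ms4a7 was called in 15 of 18 fits, lost without Ikbkb-/- replicate 3 (FDR 0.0604), Ikbkb-/- replicate 4 (0.066) or Ikbkb+/+ replicate 4 (0.0586), and Ms4a4a was called in 5 of 18, with an FDR of up to 0.126.

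In the same fit 10 of 12 NF-κB response genes were called, all higher in the IkbkbCA effect. Over all 12 tested, the differences ran from Ccl5 (0.92, FDR 0.591), which was not called, to Cxcl2 (5.39, FDR 0.00334). Of 15 interferon genes 1 was called, Cxcl10 (3.23, FDR 0.0121), and the lowest was Rsad2 (-1.47, FDR 0.0666). Of the receptors and adaptors 0 of 7 were called by edgeR (0 at an unadjusted p under 0.05), between Trem2 (-0.33, FDR 0.446) and Clec7a (0.17, FDR 0.514).

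The other members of the family gave a reference for these patterns. Of 14 further genes (12 Ms4a symbols and the related Tmem176a and Tmem176b), 3 were tested in any comparison and the other 11 never had more than 4 counts in a library. Ms4a14 was called higher with tau fibrils (1.70 ± 0.39, FDR 0.00146), in IkbkbCA (0.70 ± 0.19, FDR 0.029) and in Ikbkb-/- (0.71 ± 0.23, FDR 0.0489). In the tau experiment it had 3 to 16 counts per vehicle library and 14 to 23 with tau fibrils. It passed the filter on low counts only through the tau fibril libraries, so that call adds little. Tmem176b, an intracellular channel-like protein of the same structural superfamily, was higher with tau fibrils (1.32 ± 0.13, FDR 3.97e-09) and in IkbkbCA (1.29 ± 0.21, FDR 0.00172) and was -0.31 ± 0.10 (FDR 0.0508) in Ikbkb-/-. Tmem176a, its neighbour on another chromosome than the Ms4a cluster, rose with tau fibrils (0.94 ± 0.14, FDR 1.11e-05) and in IkbkbCA (1.52 ± 0.28, FDR 0.00364) and fell in Ikbkb-/- (-0.57 ± 0.08, FDR 6.96e-05). The effects of both Ikbkb genotypes on these genes differed by 2.11 ± 0.35 for Tmem176a (FDR 0.00131) and 1.62 ± 0.28 for Tmem176b (FDR 0.00186), and by 0.01 ± 0.32 for Ms4a14 (FDR 0.994). Between PS19 and NTG, Tmem176a was 0.08 ± 0.24 (FDR 0.957) and Tmem176b 0.04 ± 0.23 (FDR 0.978), and Ms4a14 was not tested.

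Set side by side on 1 scale, tau fibrils had the highest mean of Ms4a7, Ms4a6b, Ms4a6c and Ms4a6d, and the lower end of the order differed among them. Experiments were prepared apart, so these levels are a description. Ms4a7 averaged 904 ± 80.3 CPM with tau fibrils, 891 ± 87.9 in IkbkbCA, 586 ± 71.0 in Ikbkb-/-, 453 ± 54.8 in IkbkbWT, 451 ± 22.8 in Ikbkb+/+, 169.7 ± 23.4 with vehicle, 80.4 ± 80.9 in PS19 and 46.7 ± 9.90 in NTG (SD). Tau fibrils and IkbkbCA overlapped each other, as did Ikbkb-/- with IkbkbWT, IkbkbWT with Ikbkb+/+, vehicle with PS19 and PS19 with NTG. The steps from IkbkbCA to Ikbkb-/- and from Ikbkb+/+ to vehicle did not overlap. Ms4a6c ran from 916 ± 70.1 CPM with tau fibrils through 570.0 ± 86.3 in IkbkbCA and 493 ± 69.7 in Ikbkb-/- to 314 ± 27.3 in Ikbkb+/+, 313 ± 14.4 in IkbkbWT, 108.5 ± 52.9 in PS19, 90.9 ± 16.3 with vehicle and 68.4 ± 6.14 in NTG. Its treated or mutant culture groups did not overlap any control culture group.

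Vehicle was last for Ms4a6b (19.0 ± 5.89 CPM), below PS19 (62.1 ± 9.52) and NTG (68.8 ± 16.9) without overlap with PS19, and Ikbkb-/- (187 ± 14.9) was above IkbkbCA (167 ± 40.2) with overlap. Tau fibrils (228.5 ± 16.5) did not overlap Ikbkb-/-, and Ikbkb+/+ (103 ± 3.52) and IkbkbWT (87.7 ± 11.3) lay between. Vehicle was also last for Ms4a6d (154 ± 12.7 CPM), overlapping NTG (195 ± 63.7).

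Ms4a4c had another order. Ikbkb-/- (31.3 ± 11.1 CPM), IkbkbCA (31.1 ± 14.2) and tau fibrils (23.5 ± 2.52) overlapped in sequence and were followed by PS19 (6.56 ± 1.85), Ikbkb+/+ (3.87 ± 1.5), IkbkbWT (3.66 ± 0.66), NTG (3.44 ± 1.36) and vehicle (0.70 ± 0.61). Tau fibrils did not overlap PS19, and NTG did not overlap vehicle. Ms4a4a was highest in Ikbkb-/- (6.18 ± 1.98 CPM) and IkbkbWT (4.90 ± 1.66) and had no count in vehicle, with every neighbour in the order overlapping. Ms4a4b stayed between 0.434 and 1.60 CPM in group mean, and all of its neighbours overlapped.

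**Figure D3:**
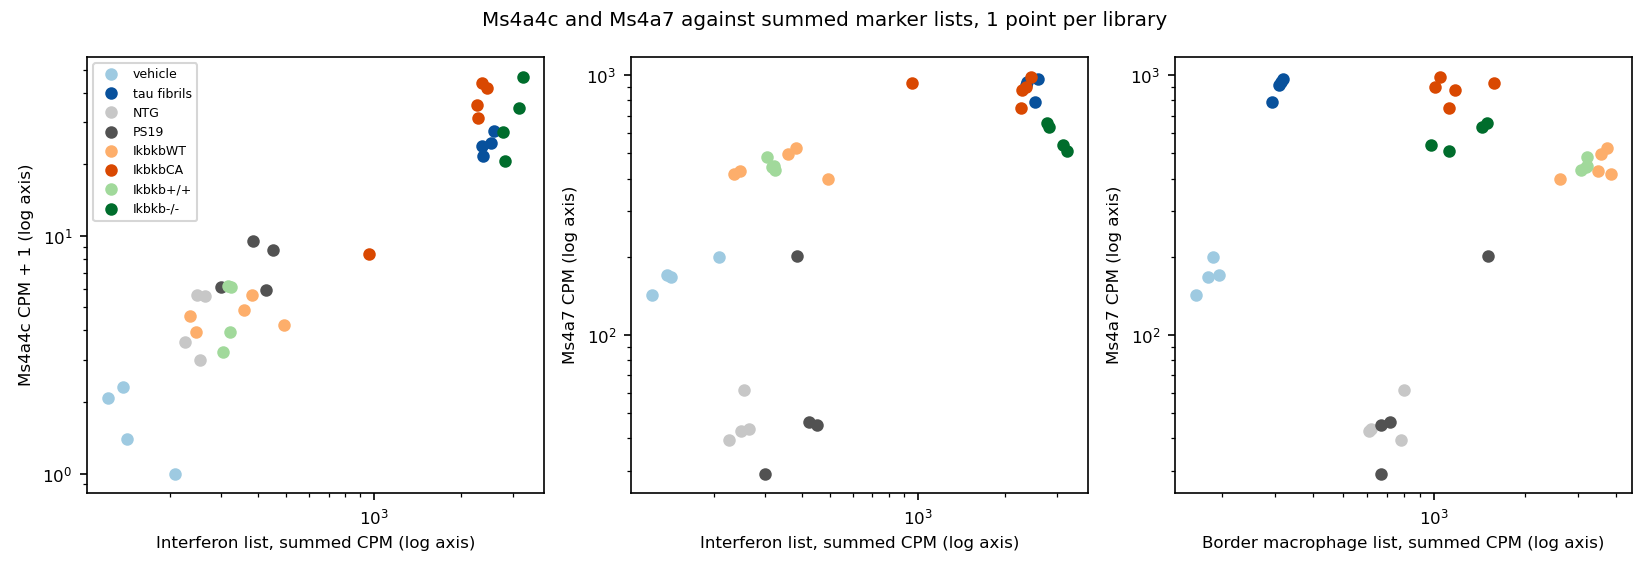
Each point is a library, coloured by group. Ms4a4c (CPM + 1, left) and Ms4a7 (CPM, middle) are plotted against the summed CPM of 15 interferon response genes, and Ms4a7 (right) against that of 8 border-associated macrophage markers, all on log axes. IkbkbCA replicate 3 lies apart at 960.0 CPM of the interferon list with 7.41 CPM of Ms4a4c but 934 CPM of Ms4a7, and at right IkbkbWT and Ikbkb+/+ lie farthest along the axis (2603 to 3850 CPM) below the mutants in Ms4a7.

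Co-variation across libraries was described after the mean of each experiment was subtracted from log2 CPM, so that the values reflect treatment and culture within an experiment, and libraries share depth and treatment. Over 34 libraries, Pearson's r among Ms4a6b, Ms4a6c and Ms4a6d was 0.928 to 0.957, and Ms4a7 had 0.798 to 0.908 with them. Ms4a4c had 0.818 to 0.867 with the Ms4a6 genes and 0.756 with Ms4a7. Ms4a4a and Ms4a4b, at a few counts per library, had at most 0.4 with any member.

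Among 13733 genes, those most like Ms4a4c were Lgals3bp (r = 0.96), Rnf213 (0.958) and Irf9 (0.955). Gbp7 (0.953), Casp1 (0.945) and Uba7 (0.945) were closest to Ms4a6b. Members led the list of Ms4a6c, with Ms4a6d (0.957), Ms4a6b (0.939) and then Fcer1g (0.936), whereas Ms4a6d was closest to Fcer1g (0.959), Ms4a6c (0.957) and Casp1 (0.928). For Ms4a7 they were Ehd1 (0.92), an endosomal recycling protein, Gpr65 (0.917), a proton-sensing receptor, and Slfn2 (0.915). In sparse counts the nearest genes of Ms4a4a were Treml2 (0.70), Nkapd1 (0.696) and Tmem126b (0.691), and those of Ms4a4b were Gm9843 (0.671), Cd63-ps (0.67) and Gm15417 (0.649).

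**Figure D4:**
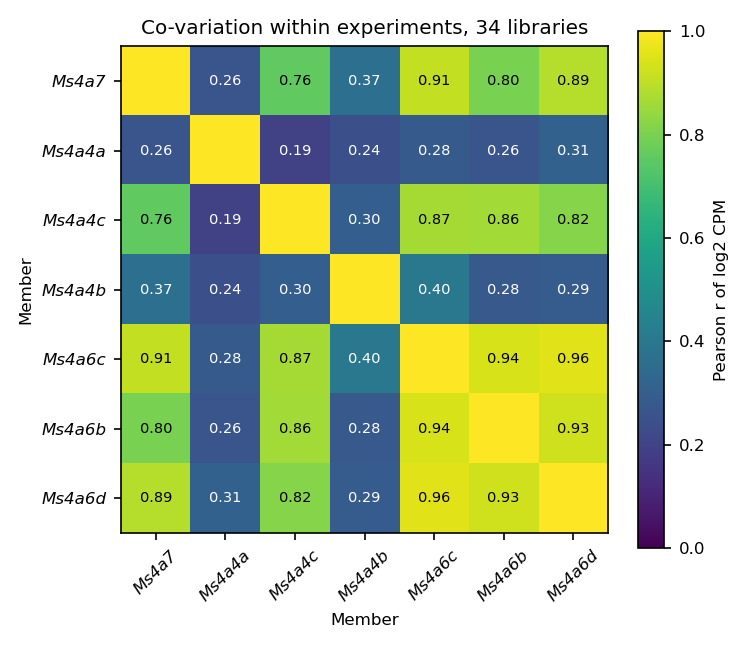
Pearson's r of log2 CPM between members over 34 libraries after subtraction of each experiment's mean. Ms4a6b, Ms4a6c, Ms4a6d and Ms4a7 form a block of 0.80 to 0.96, Ms4a4c has 0.76 to 0.87 with that block, and Ms4a4a and Ms4a4b have 0.19 to 0.40 with all others.

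The mean CPM of each member was also compared by an exact two-sided permutation test over libraries. Each difference without overlap gave the smallest p the design allows, 0.0286 for 4 against 4 libraries and 0.00794 for 5 against 5, which became 0.05 and 0.0445 after adjustment over 28 comparisons. Ms4a4a gave 0.0317 in IkbkbCA and 0.0571 in Ikbkb-/- by this exact test.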

How the data were processed

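Counts per gene were taken from the deposited tables of 34 microglia libraries. Per the methods, the authors made QuantSeq 3′ libraries, mapped reads on the Lexogen pipeline of the BlueBee platform to GRCm38 and named RSEM for the count table. The deposited counts are whole numbers without normalization, with closing lines for reads outside genes (12.4% to 38.3% of a library), ambiguous reads and reads not counted, which stayed out of every total. Of 47643 identifiers 47224 had a GENCODE M21 symbol. No libraries were identical.

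The analysis used R 4.3.3, edgeR 4.0.16 (TMM, filterByExpr with a minimum count of 10, quasi-likelihood test), DESeq2 1.42.0 and limma 3.58.1. Each comparison was fitted with its own groups, TMM factors included. The SE is the log2 fold change over the square root of its F statistic, and intervals use the fit's degrees of freedom. Alternatives were RLE and total-count scaling, no filter, DESeq2, limma-voom, leaving out each library, age as a covariate and 1 fit of 18 libraries. Added after seeing the data were divisions of the IkbkbCA cultures at 50 CPM of neuron and 1000 CPM of oligodendrocyte markers. The fits were tested on simulated data.

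All 7 members are named in every comparison, other family genes where tested, the 3 genes most like each member, and from each context list of receptors, interferon and NF-κB genes those with the highest and lowest change; others are named for description. Members and lists were chosen with earlier results of these data known. One marker of the microglial list, left out of its sums, and one interferon gene are not reported here. Counting intervals cover counting error only.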

Additional observations from a re-analysis of the deposited data

Results flagged for a closer look

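Among 55 member and group combinations with any spread, 4 had a library far from the rest of its group, where about 1 in 20 is flagged by chance. Ms4a7 in PS19 replicate 1 was 201 CPM, and the nearest PS19 library had 46.1 CPM. Ms4a6c in IkbkbCA replicate 3 was 421.5 CPM, below the nearest value of 569 CPM. Ms4a4b in the same library was 2.22 CPM, above the nearest value of 1.20 CPM, at 12 counts. Ms4a4a in PS19 replicate 4 was 0 CPM, and the nearest library had 1.00 CPM.

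The effects of both Ikbkb genotypes differed for 2 members by edgeR's quasi-likelihood test of the difference. The effect of IkbkbCA minus that of Ikbkb-/- was 0.59 (log2) for Ms4a7 (FDR 0.0245) and -2.07 for Ms4a4a (FDR 0.0494). When each library was left out in turn, the Ms4a7 call held in 15 of 18 fits and the Ms4a4a call in 5 of 18.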

How the results depend on the processing

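With tau fibrils each call of a member was kept under every alternative run, and in IkbkbCA each was kept except that of Ms4a6d within the 6 cultures low in neuron markers (0.54, FDR 0.183, where 573 genes were called). In both, 5 members were called in each fit that left out a library. Between PS19 and NTG 0 members were called in any fit. There the number of genes called was 166 with no filter, 98 with DESeq2, 4 with limma-voom and 0 with age as a covariate, and 4 to 54 when a library was left out (54 without PS19 replicate 2). Over those fits Ms4a7 ranged from -0.29 to 0.99 and Ms4a6d from -0.0611 to 0.36, the lowest without PS19 replicate 1, and Ms4a6d was -0.0294 without NTG replicate 3.

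In Ikbkb-/-, 5 or 6 members were called when a library was left out. The Ms4a4a call was lost with limma-voom (FDR 0.0557) and in 1 fit of 18 libraries (FDR 0.165), which called 875 genes. For the difference of the Ikbkb effects, 1 member was called with RLE and 1 with limma-voom (Ms4a4a lost, FDR 0.0518 and 0.0731), and 0 to 2 when a library was left out (0 without Ikbkb-/- replicate 4), while 255 to 431 genes were called (255 without Ikbkb+/+ replicate 3). Ms4a4c changed sign there (0.00373 with RLE, 0.00553 with no filter, 0.0429 with DESeq2, 0.193 without the cultures high in oligodendrocyte markers, -0.23 to 0.25 leaving out a library), as did Ms4a6b (-0.0251 to 0.193). The cause was not tested.

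Total-count scaling moved the median of all genes to -0.16 for tau fibrils (1057 genes called higher and 2254 lower, against 1506 and 1602 with TMM) and to -0.11 for IkbkbCA (753 and 1252, against 855 and 837). No paired analysis was possible because the labels give no replicate numbers and pair no libraries between groups. At 0 to 43 counts per library, Ms4a4a and Ms4a4b are limited by depth.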
